A study of Arabidopsis thaliana with 4 samples.

Results

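The regions described here are the 300 high-scoring peak regions of SHORT LIFE (SHL) whose midpoint lies in a protein-coding gene of Arabidopsis thaliana. They were chosen by measured values: where peaks of replicate 1 and replicate 2 overlapped they were joined, which gave 2186 common regions, of which 932 (42.6%) had a best peak scoring at least 100 in each replicate, and the midpoints of 300 of those 932 were in the body of a protein-coding gene. Over all common regions, 1245 midpoints (57.0%) were in such bodies. Because the scores and the midpoints made the selection, both shares are descriptions, and nothing is read from them. The scores are the authors' own, 1 per peak, and serve here for ranks and filters inside 1 list.

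SHL carries a BAH domain and a PHD finger, protein modules that dock on histone tails, and both have been studied as readers of methylated histone H3: the PHD finger for the mark of active genes and the BAH domain for the mark left by Polycomb repression. EBS is its closest relative in Arabidopsis, and loss of either protein changes the time of flowering. Chromatin immunoprecipitation with sequencing (ChIP-seq) recovers the DNA to which such a protein is crosslinked, directly or through its partners, and a peak marks a stretch where that DNA piled up.

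The plants of every sample were ebs shl mutants of the Col-0 ecotype in which HA-tagged SHL was driven by its native promoter, so the tagged form stood in for the plants' own SHL and all samples share the ebs mutation. Whole seedlings were taken at about 10 days, after growth in days of 16 h light and 8 h dark. An antibody against HA gave 2 ChIP samples, called replicate 1 and replicate 2, and 2 input samples of the same line are not analysed here. The labels do not say that the replicates were separate cultures, so their agreement may be technical. Replicate 1 listed 3668 nuclear peaks with a median score of 39.2, and replicate 2 listed 3487 with a median of 39.9. Scores of at least 100 were given to 28.9% of the peaks in each list. In whole seedlings, weak binding in many cells and strong binding in few cells cannot be told apart from a score.

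The members' best scores ran from 103.9 to 3217 in replicate 1, with a median of 1235 and quartiles of 279 and 3100. In replicate 2 their range was 101.9 to 3220, the median 1112 and the quartiles 249.2 and 3100. Many members thus sat at a score that other peaks share: 225 nuclear peaks of replicate 1 and 195 of replicate 2 scored exactly 3100. Both replicates gave at least 3100 to 91 members (30.3%, exact 95% interval 25.2 to 35.9). The same held for 53 of 318 high-scoring regions in pseudogenes (16.7%, interval 12.7 to 21.2) and for 55 of 301 without an annotated gene (18.3%, interval 14.1 to 23.1). Intervals on shares cover counting error only.

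The replicates ranked the members alike. Across the 300 members Spearman's rho between the scores was 0.961 and Pearson's r between their log10 values was 0.982. Both lists selected the members, so these coefficients only describe them. Over the 209 members that did not reach 3100 in both lists, rho was 0.954. Low-scoring regions in protein-coding genes, where every peak scored under 100, gave a rho of 0.306 over 857 regions, within a range of scores that the threshold cuts short. Expressed as a percentile of its own list, a member's score differed between replicates by a median of 0.717 percentile points. Within 5 points stayed 280 of 300 members (93.3%). Tied peaks share 1 percentile, so members at exactly 3100 in both lists have a fixed difference, and the percentile jumps just below 3100. PAP22, picked after its values were seen, scored 3158 and 3098 but stood at percentiles 99.7 and 94.1.

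**Figure D1:**
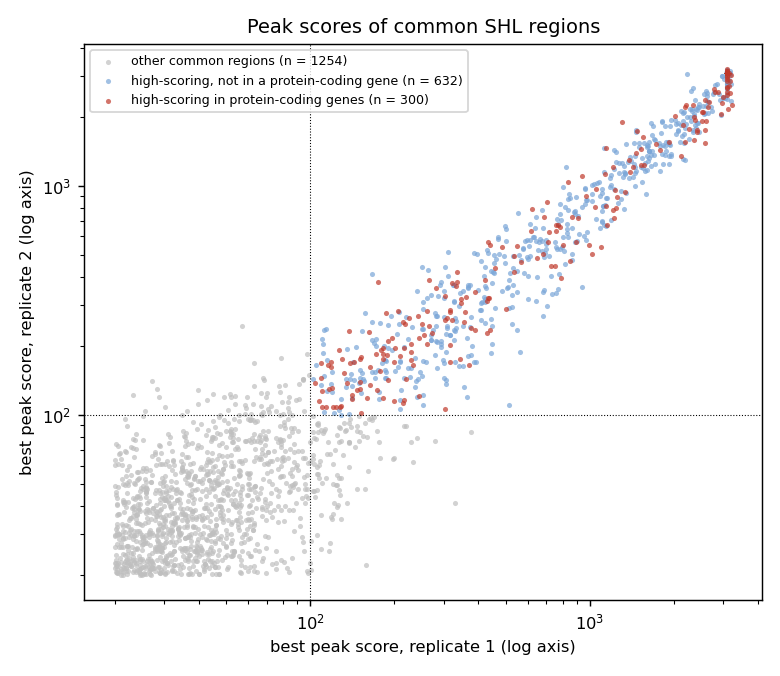
Best peak score of every common region in replicate 1 (horizontal) against replicate 2 (vertical), both on log axes, with 1 point per region. Dotted lines mark the threshold of 100. The 300 members (red) follow the same diagonal as the other 632 high-scoring regions and pile up at 3100, while the other 1254 common regions spread widely at low scores.

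As percentiles of their lists, the largest differences between replicates were in AGP23, AT4G03830 and ESR1, at up to 7.88 points. The region in AGP23, a gene of a small arabinogalactan protein, scored 304.4 in replicate 1 and 106.3 in replicate 2 at chromosome 3, 21383572 to 21384981. AT4G03830 scored 3217 and 2258 at chromosome 4, 1790606 to 1793803. ESR1, a transcription factor that promotes shoot regeneration, scored 3134 and 2160 at chromosome 1, 4428958 to 4431807. In all of these replicate 1 was higher, and AT4G03830 and ESR1 still stood at percentiles 92.3 and 92.0 of the list of replicate 2.

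Seen from single lists, nearly all strong peaks in coding bodies had a partner. Replicate 1 had 351 peaks of at least 100 with the midpoint in a protein-coding body, and 297 of them (84.6%, exact 95% interval 80.4 to 88.2) overlapped a peak of at least 100 in replicate 2. A weaker partner was found for 52, and 2 had none. In replicate 2, 303 of 338 such peaks (89.6%, interval 85.9 to 92.7) had a partner of at least 100, 35 had a weaker one and 0 had none.

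At the threshold, the members just inside were AT1G34400 with scores of 152.3 and 101.9, DIC3, a mitochondrial dicarboxylate carrier gene, with 103.9 and 137.4, and AGP23. Just outside were SBTI1.1, a subtilase gene, with 169.6 and 98.0, CWLP, a cell wall protein gene, with 163.0 and 95.4, and the cytochrome P450 gene CYP78A7 with 166.7 and 94.9. The regions just outside all missed the limit in replicate 2 alone.

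The 300 midpoints fell in 308 host genes, which is 1.12% of the 27444 protein-coding genes. Low-scoring regions in coding genes had 864 hosts. Of the members, 290 lay in 1 host and 10 in overlapping pairs of genes. YUC6 and AT4G06688 were the hosts that held 2 members each. The highest-scoring members were tied at 3100 in both replicates, so those named first are simply the first along chromosome 1. They included GAE2 (345360 to 347313), which encodes an epimerase that makes a sugar precursor of pectin, MC1 (411048 to 412770), a metacaspase that promotes cell death, and STN1 (2187294 to 2189115), a telomere-capping protein. ATLP-1 (6276122 to 6278586) encodes a thaumatin-like protein, PAB8 (18416088 to 18417834) a poly(A)-binding protein, and MBP2 (19345572 to 19348988) a myrosinase-binding protein. The Argonaute genes AGO2 and AGO3 and the unnamed genes AT1G11850, AT1G51172, AT1G54120 and the overlapping pair AT1G47657 and AT1G47660 completed the first 12 tied regions. Their products span metabolism, cell death, telomeres, RNA binding and defence, with no function shared by all.

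Glycine-rich protein (GRP) genes were the most frequent hosts among the families counted with at least 9 genes. GRP symbols cover unrelated proteins that share glycine-rich stretches, from RNA-binding proteins to cell wall and pollen coat proteins. Of 15 genes with such a symbol, 6 were hosts (40.0%, exact 95% interval 16.3 to 67.7), beside 1.12% of all protein-coding genes, and 0 hosted a low-scoring region. With synonyms, a wider count made after the values were seen, 7 of 18 were hosts and 1 more, GRP3, held a low-scoring region, with 49.4 and 46.8. The family was counted with earlier results of these data known, so the share is a description. With 50% reciprocal overlap of peaks the hosts numbered 4, and without the regions at 3100 or more in both lists 1 of the 6 was left.

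Several of these hosts encode RNA-binding proteins. GRP7, a clock-controlled RNA-binding protein that promotes flowering, held a region at chromosome 2, 9264000 to 9266728, that scored 3100 in both replicates. CCR1, also known as GRP8 and the close relative of GRP7, held one at chromosome 4, 18273517 to 18275368, with 3100 in both. GRP2, a cold shock domain protein that binds RNA, scored 3100 in both at chromosome 4, 18069949 to 18073375. All of them covered the whole gene body, and at this tied score the replicates cannot be ranked. Outside the GRP symbols PAB8, named above, is another gene of RNA biology at the top score, and RSZ22, for a splicing factor, scored 1097 in replicate 1 and 542 in replicate 2 at chromosome 4, 15306668 to 15308449.

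Of the GRP hosts that are not known as RNA-binding proteins, GRP5 scored 3100 in both replicates at chromosome 3, 7139285 to 7142492, and GRP23 scored 3100 and 2683 at chromosome 2, 13862467 to 13865512. The others belong to a tandem array on chromosome 5 of oleosin-like genes, whose products are made in the tapetum of the anther and coat the pollen. It held the widest members of all. The region hosted by GRP14 (2374491 to 2382533) was 8043 bp wide, scored 3100 in both replicates, and also overlapped GRP17 and GRP18. Next to it, the region hosted by GRP19 (2383222 to 2393533) was 10312 bp wide, scored 3100 in both, and overlapped 6 protein-coding genes, among them GRP16, GRP17 and GRP20. With any overlap in place of the midpoint, 10 GRP genes were hit. PEI1, a zinc finger gene of embryo development named after its values were seen, lay beside them with a region that scored 186.7 and 277.6. Together these members formed the only group of 3, spanning 21.3 kb. How reads from near-identical copies were placed is not given in the sources used here, so values in such arrays are uncertain.

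**Figure D2:**
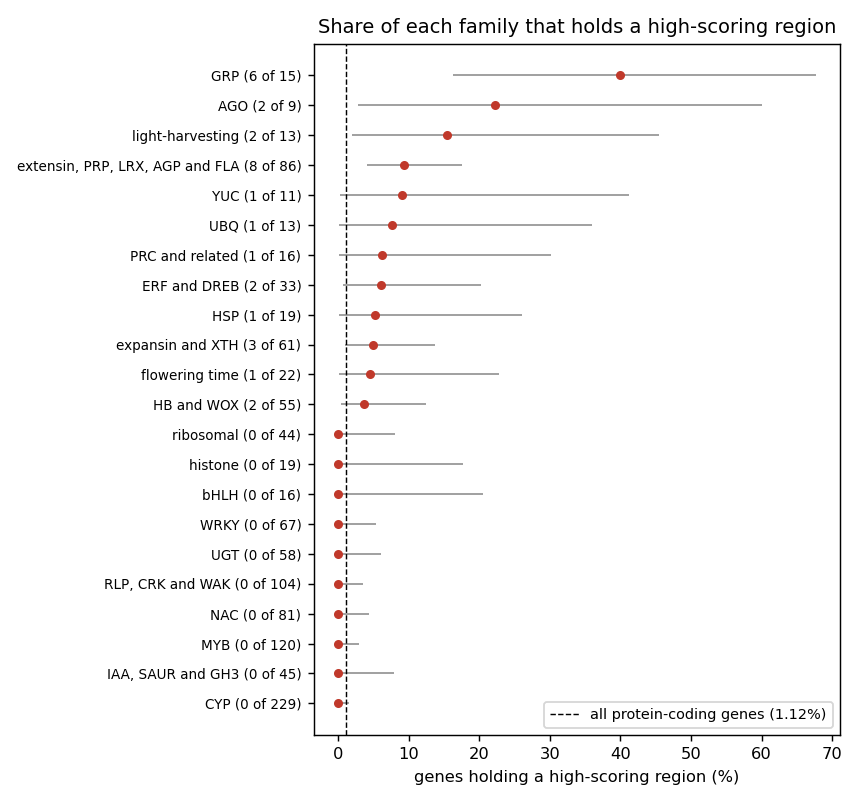
Percent of each family's genes that hold the midpoint of a high-scoring region, for families of at least 9 genes defined by symbol or locus, with exact 95% intervals as lines and the background of 1.12% dashed. GRP genes stand at 40.0% (6 of 15) and 10 of the families shown stand at 0, with intervals that widen as families get smaller.

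Structural genes of the cell wall were the largest symbol-defined group by number. Extensins, proline-rich proteins, leucine-rich repeat extensins, arabinogalactan proteins and fasciclin-like proteins are wall glycoproteins, and 8 of 86 genes with their symbols were hosts (9.30%, exact 95% interval 4.10 to 17.5). A further 10 hosted low-scoring regions. AGP11, an arabinogalactan protein of pollen, scored 3100 in both replicates at chromosome 3, 258182 to 260123, and AGP7 did so at chromosome 5, 26128018 to 26129976. LRX3, which anchors the wall to the cell surface, scored 3198 and 3053 at chromosome 4, 7759111 to 7761540, and PRP2 scored 1301 and 1899 at chromosome 2, 9060493 to 9063463. AGP7 and AGP11 are at the tied score, LRX3 is close to it, and PRP2 is lower in both lists, with replicate 2 the higher. The fasciclin-like genes, picked after their values were seen, were lower still, with 568.6 and 465.8 for FLA8 and 141.5 and 117.4 for FLA10.

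Enzymes and proteins that loosen the wall gave 3 hosts among 61 expansin and xyloglucan endotransglucosylase (XTH) genes (4.92%, exact 95% interval 1.03 to 13.7). EXPA24 scored 3100 in both replicates at chromosome 5, 15738776 to 15741992. XTH32 scored 260.9 and 282.3 at chromosome 2, 15472334 to 15473865, and XTH26 scored 375.6 and 240.0 at chromosome 4, 14244329 to 14246494. The expansin gene was at the tied score and both XTH genes were in the lower part of the members' range. Some groups, here and below, were found by words in gene symbols and synonyms, so genes whose names lack the words are missed. Words for glycine-rich or proline-rich proteins gave 10 hosts of 57 (17.5%, interval 8.75 to 29.9). These include GRP, LRX3 and PRP2 genes counted above.

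Both genes with a RAV symbol were hosts. They encode transcription factors with an AP2 and a B3 domain, and RAV2, also called TEM2, represses the flowering gene FT. RAV1 scored 199.95 and 170.6 at chromosome 1, 4542059 to 4544385. RAV2 scored 114.4 and 107.6 at chromosome 1, 25880121 to 25881995, near the threshold. Their relative TEM1 held a low-scoring region, with 37.95 and 32.3. All 3 genes with a TEM or RAV symbol thus held a common region, and relatives under other symbols were not counted. RAV2 was the single host among 22 flowering-time genes.

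Among other transcription factors, genes with an ERF or DREB symbol gave 2 hosts of 33 (6.06%, exact 95% interval 0.743 to 20.2). A further 5 hosted low-scoring regions. Genes of these families under other symbols were not counted, so the share is not that of the whole families. ERF13 scored 2196 and 1543 at chromosome 2, 18494621 to 18497442. ERF4, a repressor of ethylene responses, scored 533.9 and 490.9 at chromosome 3, 5120892 to 5122603. Homeobox genes with an HB or WOX symbol gave 2 of 55 (3.64%, interval 0.443 to 12.5), both of the zinc finger homeodomain kind. HB22 scored 683.5 and 728.6 at chromosome 4, 12724350 to 12726056. HB23 scored 261.4 and 202.7 at chromosome 5, 15911279 to 15913578. ERF13, ERF4, HB22 and HB23 lay below 3100, and replicate 1 was higher in all but HB22. ZFP4, a zinc finger gene, scored 3100 in both at chromosome 1, 24618970 to 24621420. GNC, a GATA factor that promotes chloroplast development, scored 3100 and 2919 at chromosome 5, 22988998 to 22991886. GNC and ZFP4 were the strongest of the 6 hosts among 309 genes found by transcription factor words (1.94%, interval 0.716 to 4.18).

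Other families, counted by symbol, gave no high-scoring host, although several held low-scoring regions. Genes of these families under other symbols were not counted, so a 0 holds only for the genes matched and not for the whole family. For comparison, 864 of all 27444 protein-coding genes hosted a low-scoring region. None of 67 WRKY genes was a host (upper exact limit 5.36%), while 12 hosted low-scoring regions. The corresponding numbers were 0 of 120 for MYB (limit 3.03%, 8 low-scoring) and 0 of 81 for NAC (limit 4.45%, 4 low-scoring). Cytochrome P450 genes had 0 hosts of 229 (limit 1.60%) and 20 with low-scoring regions, and glycosyltransferases of the UGT family had 0 of 58 and 11. The upper limits named here all lie above the background of 1.12%, and no family was tested. Receptor-like RLP, CRK and WAK genes had 0 hosts of 104 (limit 3.48%) and 0 with low-scoring regions, as did the 44 ribosomal protein, 19 histone and 16 bHLH genes found by symbol.

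**Figure D3:**
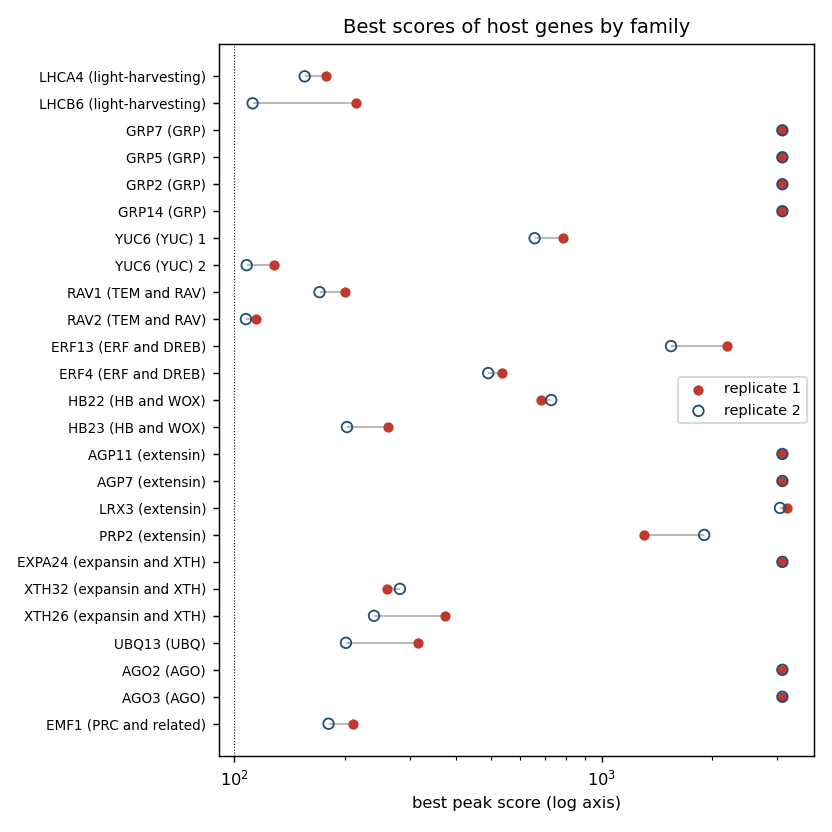
Best peak scores of host genes named from the families, in replicate 1 (filled) and replicate 2 (open), on a log axis. The dotted line marks 100. GRP2, GRP5, GRP7, GRP14, AGP7, AGP11, EXPA24, AGO2 and AGO3 sit at 3100 in both, while the antenna, RAV and XTH genes and EMF1 sit between 100 and 400.

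Groups of related hosts, some under different symbols and picked after the values were seen, included transcription factors of other kinds. The AHL proteins bind AT-rich DNA through an AT-hook, and 4 of 29 were hosts (13.8%), with 7 more holding low-scoring regions. AHL19 scored 2580 and 1751, AHL20 scored 728.2 and 446.7, GIK scored 175.6 and 380.5, and AGF1 scored 130.4 and 175.4. AHL19 was highest in both lists, and the order of the others was the same in both. HMGA, another AT-hook protein picked in the same way, scored 750.6 and 447.6. Of 31 B-box genes 3 were hosts (9.68%): COL4 scored 3100 in both, COL3 scored 935.0 and 1103, and BBX14 scored 182.6 and 174.4. COL3 and COL4 are relatives of the photoperiod gene CONSTANS.

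Hormone genes among the hosts covered synthesis, breakdown and signalling. YUC6, whose enzyme makes auxin, held 2 separate members, with 782.7 and 656.6 at chromosome 5, 8934064 to 8936424, and with 127.9 and 108.2 at 8937212 to 8938908. It was the single host of 11 YUC genes, of which 4 held low-scoring regions. The CKX enzymes break down cytokinin and gave 2 hosts of 7: CKX4 scored 3100 in both replicates and CKX5 scored 970.2 and 904.3. The NCED enzymes cleave carotenoids in the abscisic acid pathway and also gave 2 of 7, with 117.0 and 129.6 for NCED5 and 110.5 and 127.1 for NCED2. Words for F-box proteins, which match 31 genes and miss others of that class, gave 2 hosts. AT3G59940, with 315.1 and 287.1, and AT1G80440, with 216.1 and 115.9, belong to the KMD group of 4 genes, whose products direct regulators of the cytokinin response to degradation. RGL3, a DELLA repressor of gibberellin responses, scored 119.3 and 130.7. CKX, NCED and RGL3 were chosen after their values were seen. The cytokinin oxidase CKX4 was at the tied score, and the NCED genes and RGL3 were close to the threshold in both lists.

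Genes of light capture and chloroplasts differed widely in score. LHCA4 and LHCB6 encode antenna proteins of photosystem I and photosystem II, and were the 2 hosts of 13 light-harvesting genes (15.4%, exact 95% interval 1.92 to 45.4), of which 6 more held low-scoring regions. LHCA4 scored 177.7 and 155.5, and LHCB6 scored 215.0 and 112.2. The gene with the symbol CAO at locus AT2G47450 scored 3100 in both replicates at chromosome 2, 19472265 to 19474286. Tic20-II, related to a channel protein of chloroplast import, scored 2156 and 1831 at chromosome 2, 19594163 to 19595659. The antenna genes thus lay in the lower part of the members' range, and CAO and Tic20-II in the upper part. Words for organelles gave 4 hosts of 272 (1.47%, interval 0.402 to 3.72).

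Silencing, defence and cell death genes included some of the top scores. AGO2, an Argonaute of antiviral defence, and its tandem neighbour AGO3 held regions at chromosome 1, 11180973 to 11183007 and 11187191 to 11191055, and both scored 3100 in both replicates. They were 2 of 9 genes with an AGO symbol (22.2%, exact 95% interval 2.81 to 60.0), and 2 others held low-scoring regions. The metacaspases MC1 and MC2, which act against each other in cell death, both scored 3100 in both replicates, 2 hosts of 9. RBOHD, the NADPH oxidase of the immune oxidative burst, also scored 3100 in both. TLP-3, a thaumatin-like gene, scored 2973 and 2302. It and a second member in AT1G75050 lie on either side of PR5, a salicylic acid marker gene whose own region was low-scoring, with 29.0 and 42.7. HSPRO2, which the heat shock symbol pattern caught but which is no heat shock protein, scored 172.4 and 183.2. RBOHD, TLP-3 and MC2 were picked after their values were seen.

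Hosts of signalling and transport were few among genes found by kinase words and more frequent in some small groups picked afterwards. SIP3, the protein kinase CIPK6, was the single host among 583 genes found by kinase words (0.172%, exact 95% interval 0.00434 to 0.952), and scored 1725 and 1526 at chromosome 4, 15065088 to 15069761. Amino acid transporters of the CAT group gave 3 hosts of 9, picked like the next group after the values were seen: CAT6 scored 3100 in both, CAT9 scored 1240 and 798.3, and CAT7 scored 181.8 and 196.3. IQD genes, for calmodulin-binding scaffold proteins, gave 3 of 33, with 3100 in both for IQD22, 678.3 and 504.7 for IQD25 and 163.6 and 160.9 for IQD24. In each of these groups 1 gene was at the tied score and the others lay lower, in the same order in both lists. The remaining hosts named by the rule were UBQ13, a ubiquitin gene, with 316.5 and 201.4, and HIP1, found only through the word tetratricopeptide among 481 genes of the small secreted protein words, with 2656 and 2201.

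Of 16 Polycomb and related genes, EMF1, which acts in Polycomb silencing, was the single host (6.25%, exact 95% interval 0.158 to 30.2), with 209.9 and 180.6 at chromosome 5, 3695410 to 3697882. The neighbouring member in AT5G11550 scored 3100 in both replicates. Neither SHL nor EBS was a host, and the nearest members were 53.2 kb and 93.6 kb away. FT and SOC1, which promote flowering, were 54.3 kb and 63.1 kb from the nearest member. The floral repressor gene FLC lay 0.767 kb from the edge of a member hosted by AT5G10120, which scored 2578 and 1536. That member also overlapped the gene AT5G10130 but not FLC. FLC is thus the one of these 5 genes with a member within 1 kb, and none of them hosts one.

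Counted together, 31 of 308 hosts (10.1%, exact 95% interval 6.94 to 14.0) belonged to a family defined by symbol or locus. The share was 11.9% (interval 9.84 to 14.3) among 864 hosts of low-scoring regions and 4.45% among all protein-coding genes. The intervals of both kinds of host overlap. Most hosts carry no symbol but a locus tag: 189 of 308 (61.4%, interval 55.7 to 66.8), which is near the 62.2% of all protein-coding genes and above the 48.6% (interval 45.2 to 52.0) of low-scoring hosts. Of the 308 hosts, 2 also held the midpoint of a low-scoring region, beside 864 of all 27444 protein-coding genes. Overlapping peaks were joined and classed by their best scores, so this count is a description.

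Member regions were wide, with a median of 1997 bp, quartiles of 1607 and 2672 bp, and a range from 711 to 10312 bp. The narrowest were in AT2G48130 (711 bp, with scores of 280.9 and 357.3) and AT1G16670 (813 bp, with 432.9 and 569.3), and the widest were those of the pollen coat genes described above. Low-scoring regions in coding genes had a median width of 1596 bp, and high-scoring ones in pseudogenes 1484 bp. Width and score come from the same peak calls, and across the 300 members Spearman's rho between them was 0.335 in replicate 1 and 0.413 in replicate 2. The best peaks of both replicates shared a median of 78.5% of their joint span, against 66.1% in low-scoring regions, and their midpoints were a median of 126 bp apart, against 190 bp. High-scoring regions in pseudogenes shared 81.3%, with midpoints 77 bp apart, and those without a gene 79.9%, with midpoints 86.5 bp apart, so by both measures the members lay between these classes and the low-scoring regions.

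Split by the lower of both scores, 91 members reached 3100, 91 lay from 500 up to 3100, and 118 lay from 100 up to 500. Median widths were 2324, 1853 and 1754 bp in that order, and median host lengths were 2081, 1801 and 1737 bp. By median, regions with the top scores were therefore the widest and had the longest hosts, although the distributions overlap broadly.

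**Figure D4:**
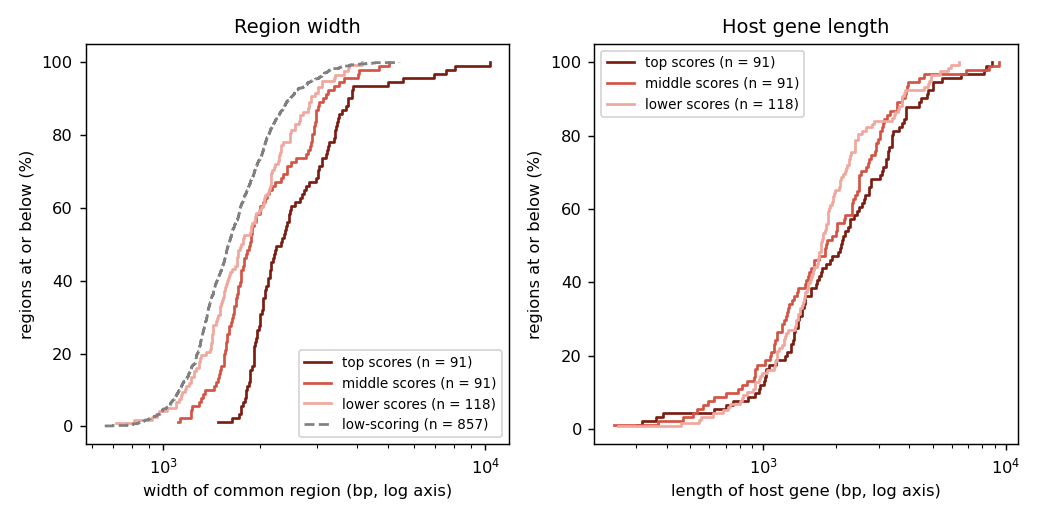
Cumulative percent of regions by width of the common region (left) and by length of the host gene (right), in bp on log axes, for members with top, middle and lower scores and, on the left, for low-scoring regions in coding genes (dashed). The curve of the 91 top members lies to the right in width, with a median of 2324 bp against 1596 bp for low-scoring regions, and the host length curves run close together.

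Relative to their hosts, members about as often covered the whole gene as crossed 1 of its edges. The region covered the entire body in 133 members (44.3%, exact 95% interval 38.6 to 50.2), crossed 1 edge in 139 (46.3%, interval 40.6 to 52.2) and lay inside in 28 (9.33%, interval 6.29 to 13.2). Among low-scoring regions in coding genes the shares were 26.8% (interval 23.9 to 29.9), 55.0% and 18.2%. The intervals for whole bodies do not overlap, and the members' greater width moves with this share. Hosts had a median length of 1802 bp, against 1881 bp for low-scoring hosts and 2078 bp for all protein-coding genes. The midpoint lay within 250 bp of a gene edge in 69 members (23.0%, interval 18.4 to 28.2), against 12.4% (interval 10.2 to 14.8) of low-scoring regions. A member overlapped several protein-coding genes in 90 cases (30.0%, interval 24.9 to 35.5), against 14.0% (interval 11.7 to 16.5), and a pseudogene in 18 (6.0%), against 1.52%. In such members the midpoint names 1 of several genes, so the host may not be the gene that matters. The reference gives no strand or exons, so start and end of a gene were not told apart.

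**Figure D5:**
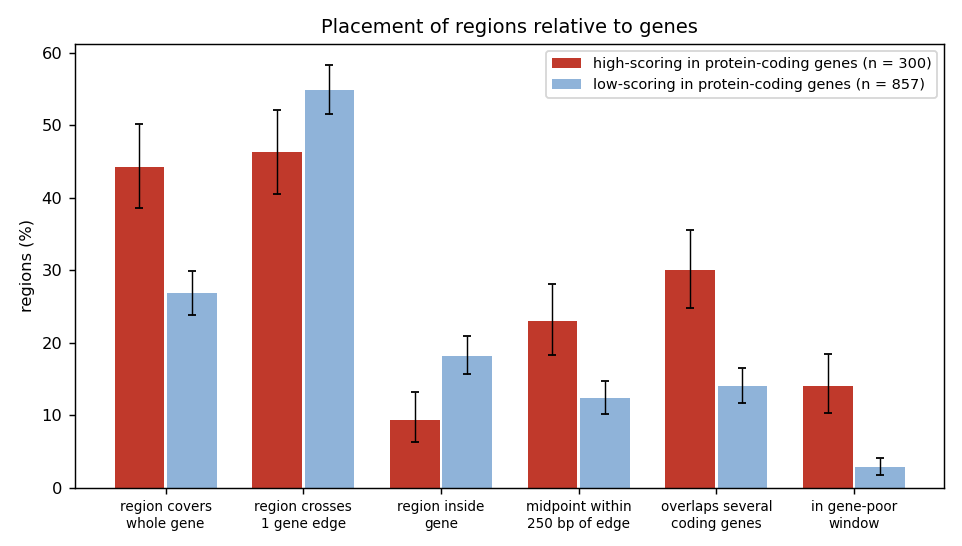
Percent of regions in 6 classes of placement, for the 300 members (red) and 857 low-scoring regions in protein-coding genes (blue), with exact 95% intervals as error bars. Members more often covered the whole gene (44.3% against 26.8%), overlapped several genes (30.0% against 14.0%) and lay in gene-poor windows (14.0% against 2.80%).

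Along the genome, members were spread over all 5 chromosomes, with 65, 50, 56, 52 and 77 on chromosomes 1 to 5, or 9.08, 11.6, 10.3, 12.4 and 12.2 per 1000 protein-coding genes. Of the members, 42 (14.0%, exact 95% interval 10.3 to 18.4) lay in gene-poor windows, which are 20 of the 121 windows of 1 Mb, those whose protein-coding genes number less than 50% of the median window. This was above the 2.80% (interval 1.80 to 4.14) of low-scoring regions in coding genes and below the 71.1% of high-scoring regions in pseudogenes and the 49.5% of those without a gene. Among all protein-coding genes, 4.66% lay in such windows, against 13.3% (interval 9.72 to 17.6) of the hosts. NIA2, for nitrate reductase, was among these hosts, with 160.3 and 118.6, as was SAP, a regulator of flower and leaf growth, with 3100 in both. Both were picked after their values were seen.

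Members were mostly isolated. The median gap to the nearest other member was 134 kb, and 31 members (10.3%) had another within 10 kb. They formed 14 pairs and the group of 3 at the pollen coat genes. The pairs, of which a few were picked here, held AGO2 with AGO3, the regions of YUC6, TLP-3 with AT1G75050, EMF1 with AT5G11550, LHCB6 with AT1G15840 and STN1 with AT1G07135. Among the 857 low-scoring regions, which are more numerous, the median gap was 34.8 kb.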

How the data were processed

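DNA recovered with an antibody against HA was sequenced in 2 ChIP samples, and each deposited list holds the authors' peaks of 1 sample with a score per peak. Bowtie2 (version 2.2.8), SAMtools (1.3) and MACS (1.4) are named in the submitters' processing notes, with TAIR10 as the build. Settings, and whether the inputs served as control, are not given in the sources used here. By the convention of that peak caller the score grows as the p-value falls, and the lists have no header to state it. Read depth is unknown from these lists. All per-sample value columns were used.

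Nuclear peaks overlapping by at least 1 bp were merged, and midpoints were placed in gene bodies of the RefSeq table of TAIR10.1, which gives no strand, exons or sequence. No gene coordinate is printed, and region coordinates count from 1. Of the 932 high-scoring midpoints, 32.2% fell in coding bodies, against 22.6% when shifted by -1500 bp and 23.8% when shifted by 1500 bp. The planned description of promoter and protein sequences was not run, for lack of sequence tables. Merging and placement were tested on simulated data.

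The members and the 35 families were chosen with earlier results of these data known. Named genes are the 12 members with the highest lower percentile (ties by position), 3 on each side of the threshold, up to 4 hosts per family, the 3 largest differences between replicates, the 2 widest and 2 narrowest members, and SHL, EBS, FT, SOC1 and FLC. Other names are marked, and 1 family is not reported here. No test was run, since both samples form 1 group whose scores chose the members. Intervals are exact (Clopper-Pearson). Alternatives were other thresholds (50, 200, 500), 50% reciprocal overlap, the shared part of a region, any overlap with a gene, and each replicate alone.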

Additional observations from a re-analysis of the deposited data

Results flagged for a closer look

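The lists also held mitochondrial peaks, which lie outside the nuclear regions described here. Replicate 1 had 10, with scores from 37.5 to 3100 and a median of 401.4. Replicate 2 had 7, with scores from 20.9 to 3100 and a median of 641.2. They were noted because they are a signal in data that no comparison used. A score of 3100 was thus also reached outside the nuclear genome in both lists. No comparison with input was made here, so a high score alone does not show binding by SHL.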

How the results depend on the processing

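Over 9 results and 10 alternatives, 66 of 89 values stayed within the tolerance set for their kind and 23 moved beyond it. The tolerance was 1.5 times the reported number for counts, the exact 95% interval for shares, and 1 SD of the values of both replicates alone for medians. The cause was not tested. Members numbered 458 at scores of at least 50 and 182 at 500, against 300, and hosts 465 and 190, against 308. Any overlap with a gene body gave 560 hosts. The share of high-scoring regions in coding genes, 32.2%, was 38.5% at 50 and 45.3% with any overlap. Median width, 1997 bp, was 1615 bp for the part shared by both lists, and 1682 to 1840.5 bp in single replicates. Median host length, 1802 bp, was 1849 bp at 50, 1768.5 bp at 200, 1902.5 bp at 500, 1830.5 bp with any overlap, and 1805 to 1844.5 bp in single replicates. Alternatives chosen after seeing the data left out regions at 3100 or more in both lists (28.6% in coding genes, width 1806 bp, host length 1748 bp) or gene-poor windows (50.5% in coding genes, host length 1847 bp). GRP and cell wall counts were also added then. GRP hosts, 6, were 10 with any overlap, 4 with 50% reciprocal overlap, 1 without the top scores and 5 to 6 in single replicates. Cell wall hosts, 8, were 5 at 500. No paired analysis was possible because the inputs entered no comparison, which leaves 1 group.

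Scores tied at 3100 cannot be ranked, read depth is unknown, the midpoint assigns 1 gene where regions overlap several, and the gene table is of TAIR10.1 while the lists use TAIR10.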
